A study of Mus musculus with 8 samples.

Results

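The genes of MHC class II antigen presentation were described in sorted lung endothelium, namely Cd74, H2-Aa, H2-Ab1, H2-Eb1, H2-DMa, H2-DMb1, Ciita and Ctss. They are 8 of the 34899 genes of the deposited table, chosen by name, and all 8 passed the filter on low counts, which left 17067 genes. The cells came from lungs of female C57BL6 mice and were sorted by flow cytometry as CD31-positive cells that lack the leukocyte protein CD45. The labels divide the mice into HF and LF, with 4 libraries each, and do not spell out these names, the age of the mice or whether lungs were pooled. A comparison of the groups asks whether obesity, which the series title names, goes with a different level of class II transcripts in the vessel wall of the lung. Values are the authors' normalised read counts, which are not scaled for gene length. In such bulk libraries, fewer cells of a type and less RNA per cell cannot be told apart.

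Class II molecules carry peptides from endosomes to the cell surface, where CD4-positive T cells read them. The alpha and beta chains meet in the endoplasmic reticulum with the invariant chain, the product of Cd74, which blocks their groove until proteases such as cathepsin S (Ctss) cut it down and the H2-M heterodimer (H2-DMa, H2-DMb1) exchanges the remnant for a peptide. All of these chains depend on the coactivator CIITA, which interferon gamma induces in cells that are not professional presenters, endothelium among them. CIITA binds no DNA itself but docks on factors that sit on the X and Y boxes of class II promoters.

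The promoters of class II genes are shown because the paired boxes are a sequence feature that 3 of the members share there. RefSeq promoters of build GRCm38.p6, from 250 bases before to 50 after the start site, were found for 5 of the 8 members, H2-Aa, H2-Eb1, H2-DMa, H2-DMb1 and Ctss. Cd74, H2-Ab1 and Ciita had no entry. The core letters CTNGNAAC of the X box and ATTGG of the Y box were searched on both strands, with letters chosen after these sequences had been read. In H2-Aa (chr17:34287774-34288073 on the minus strand), H2-Eb1 (chr17:34305617-34305916 on the plus strand) and H2-DMb1 (chr17:34152941-34153240 on the plus strand) the X core preceded the Y core on the gene's own strand. Capitals mark both cores, and each sequence runs 5′ to 3′ along the gene.
H2-Aa: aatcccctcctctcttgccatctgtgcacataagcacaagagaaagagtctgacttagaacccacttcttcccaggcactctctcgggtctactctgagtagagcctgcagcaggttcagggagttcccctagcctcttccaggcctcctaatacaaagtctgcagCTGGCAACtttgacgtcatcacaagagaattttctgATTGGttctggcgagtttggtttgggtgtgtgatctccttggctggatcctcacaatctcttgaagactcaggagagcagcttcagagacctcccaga
H2-Eb1: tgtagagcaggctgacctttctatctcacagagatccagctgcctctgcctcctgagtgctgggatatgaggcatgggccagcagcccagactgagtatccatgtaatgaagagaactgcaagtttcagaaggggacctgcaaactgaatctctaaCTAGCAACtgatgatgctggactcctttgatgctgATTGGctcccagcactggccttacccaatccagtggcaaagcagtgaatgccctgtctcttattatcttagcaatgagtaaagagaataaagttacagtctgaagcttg
H2-DMb1: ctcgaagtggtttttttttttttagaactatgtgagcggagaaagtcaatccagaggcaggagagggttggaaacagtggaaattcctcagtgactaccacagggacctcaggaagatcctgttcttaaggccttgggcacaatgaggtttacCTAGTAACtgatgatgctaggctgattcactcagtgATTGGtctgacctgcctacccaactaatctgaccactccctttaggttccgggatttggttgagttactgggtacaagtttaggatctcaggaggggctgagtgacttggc
The cores were 28, 27 and 28 bases apart in these genes, counted from the end of the X core to the start of the Y core. The Y core began 48, 59 and 61 bases before the start site. Of all 32851 promoters of the table, 13.2% hold the X core and 37.4% the Y core, while 0.438% (144) hold both in this order on one strand within 40 bases. The pair was also found in H2-Ob, which encodes a chain of the H2-O inhibitor of H2-M, with 25 bases between the cores. No such pair was found in either entry for H2-DMa.

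Ctss is shown beside them as a member whose promoter lacks this pair. H2-DMa lacks it too and followed the course of the other class II genes across the libraries, while Ctss did not. A link between promoter sequence and level was not tested. The Ctss promoter (chr3:95526536-95526835 on the plus strand) holds 1 match to an interferon response element, in capitals, 21 bases before the start site. The element was read as 2 copies of GAAA with 2 bases between them (both strands searched). This element is in 3.44% of all promoters of the table and in none of the other 4 members with an entry.
Ctss: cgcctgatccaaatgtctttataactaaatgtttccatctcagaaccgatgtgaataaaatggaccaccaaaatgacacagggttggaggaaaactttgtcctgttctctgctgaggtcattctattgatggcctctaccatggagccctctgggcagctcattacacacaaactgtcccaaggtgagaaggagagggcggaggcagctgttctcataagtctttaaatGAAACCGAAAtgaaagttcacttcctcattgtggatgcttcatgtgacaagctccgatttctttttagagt

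Markers of the labelled cell type were abundant, with Pecam1 (CD31) at 19425 to 33236 normalised counts over the 8 libraries and Cdh5, the endothelial cadherin, at 9595 to 13204. Libraries held 10631506 to 20781564 reads assigned to genes. LF 1 and LF 2 stood apart from the other 6 libraries on the first principal component of all tested genes (at -56.4 and -50.9, against -6.79 to 39.6), and LF 3 and LF 4 on the second (-38.5 and -34.2, against -1.41 to 29.6). The comparisons of the members are therefore also given without either pair.

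In GRCm38 with GENCODE M21 genes, 5 members lie together in the MHC of chromosome 17, where H2-DMa spans 34119541 to 34139101, H2-DMb1 34153072 to 34160230, H2-Ab1 34257689 to 34269419, H2-Aa 34282744 to 34287823 and H2-Eb1 34305867 to 34316674. H2-Aa is on the minus strand and the others are on the plus strand. Outside the MHC, Cd74 lies on chromosome 18 from 60803848 to 60812652, Ciita on chromosome 16 from 10480059 to 10528418 and Ctss on chromosome 3 from 95526786 to 95556403, all on the plus strand. All 8 are protein-coding, and the deposited values are given per gene, with its transcripts not told apart.

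Cd74 was among the most abundant transcripts of these endothelial libraries. Scaled to the length of its annotated exons, it stood at 19600.2 normalised counts per kilobase on average over the 8 libraries, rank 7 of 17067 genes. On the same scale H2-Ab1, the beta chain of I-A, was at 6657 (rank 55), H2-Eb1, the beta chain of I-E, at 3839 (rank 131) and H2-Aa, the alpha chain of I-A, at 2825 (rank 206). For comparison, Pecam1 was at 4306 per kilobase (rank 110) and Cdh5 at 2878 (rank 201). The editor chains followed, with H2-DMb1 at 2169 and H2-DMa at 779.9, and then Ctss at 228 and Ciita at 208. The ranges over libraries overlapped between all neighbours in this order. Within single libraries the order nevertheless held in 8 of 8 for each pair of neighbours except the last, Ctss and Ciita, where it held in 5. Both the step from H2-Eb1 to H2-Aa and that from Ctss to Ciita rested on the length used. With the length of the principal coding transcript, H2-Aa stood above H2-Eb1 in every library (9513 against 4471 per kilobase), and Ctss was above Ciita in 2 of 8. The same length raised H2-Ab1 to 14106 (rank 29) and H2-DMa to 1622 (rank 692) per kilobase.

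**Figure D1:**
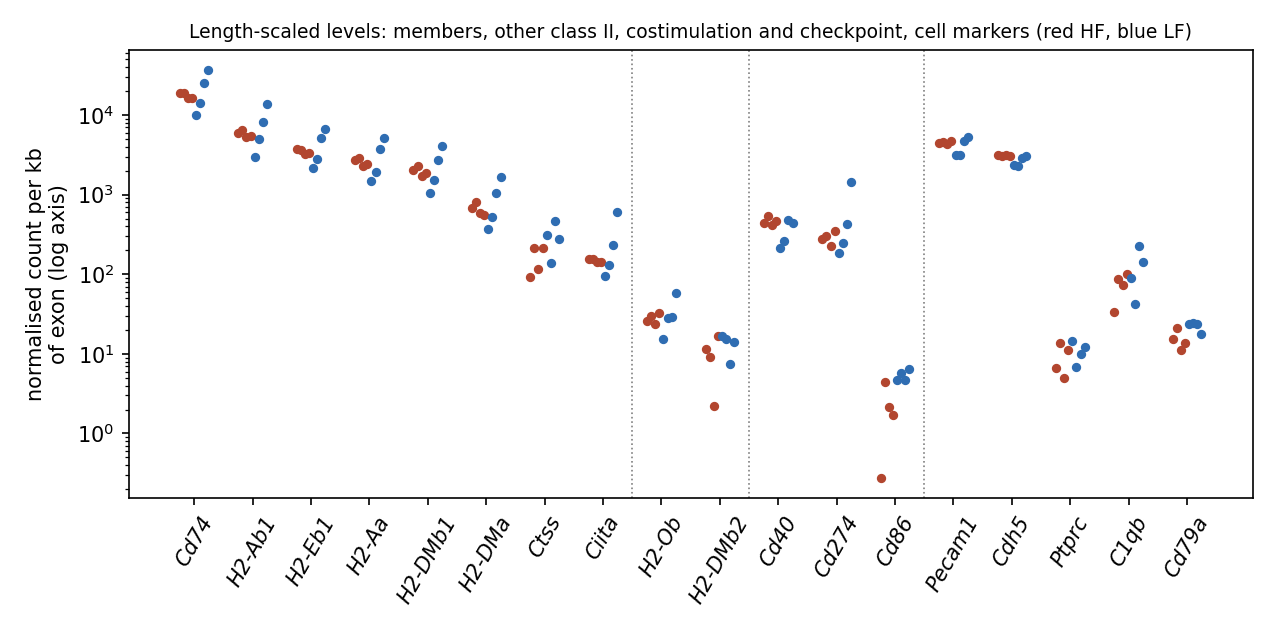
Normalised counts per kilobase of annotated exon (log axis) for the 8 class II genes and, right of each dotted line, for other class II chains, costimulatory and checkpoint genes, and markers of endothelium (Pecam1, Cdh5) and leukocytes (Ptprc, C1qb, Cd79a), with 1 point per library, HF in red and LF in blue. Cd74 lies above Pecam1 in every library, at 10103 to 36449 against 3119 to 5337 per kilobase. Ptprc lies at 4.93 to 14.5, scaled to 18.3 kb of annotated exon, and a shorter transcript length would raise it.

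The invariant chain and the 3 presenting chains varied less among the HF than among the LF libraries. Cd74 was at 31743, 32097, 27359 and 27514 in HF 1 to HF 4 and 16962, 23867, 42531 and 61197 in LF 1 to LF 4. The HF values lay together between those of LF 2 and LF 3, so the groups overlapped. H2-Ab1 was at 15407, 16538, 13801 and 13892 in HF 1 to HF 4 and 7558, 12720.2, 21289 and 35562 in LF 1 to LF 4. Its partner H2-Aa was at 10314, 10895, 8770.4 and 9099.9 in HF 1 to HF 4 and 5609, 7414, 14309.99 and 19437 in LF 1 to LF 4. In both chains LF 4 was highest, LF 3 second and LF 1 lowest, and all 4 HF libraries fell between LF 2 and LF 3. H2-Eb1 was at 7201, 7038, 6306 and 6444 in HF 1 to HF 4 and 4267, 5427, 9887 and 13131 in LF 1 to LF 4, with the same libraries at its ends. C57BL/6 mice carry a defective H2-Ea gene, so its alpha partner is not made. H2-Ea, annotated as H2-Ea-ps, was at 0 to 2.91 normalised counts.

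The peptide editor and the coactivator followed the same course. H2-DMa was at 2317, 2759, 2046 and 1937 in HF 1 to HF 4 and 1289.6, 1786, 3650.3 and 5727 in LF 1 to LF 4. H2-DMb1 was at 3400.02, 3896, 2907 and 3160.4 in HF 1 to HF 4 and 1789, 2582, 4559 and 6869.9 in LF 1 to LF 4. Again LF 4 and LF 3 were above and LF 2 and LF 1 below every HF library. Ciita was at 1462, 1485, 1369 and 1356 in HF 1 to HF 4 and 913, 1245, 2208 and 5818 in LF 1 to LF 4. It had the narrowest HF range of the 8 members, 1.10-fold from lowest to highest, and the widest LF range, 6.38-fold, which came from LF 4. The strand setting of the counting is not known and H2-DMa overlaps Brd2 and 3 other gene models, and 22.7% of the 50-base windows of H2-DMb1 transcripts also occur in its paralog H2-DMb2, so the values of both genes are less certain than those of H2-Aa and H2-Ab1, which overlap no other model.

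Ctss did not share this course. It was at 126, 287, 160.3 and 289 in HF 1 to HF 4 and 417, 188, 634 and 379.97 in LF 1 to LF 4. LF 3 and LF 1 were highest and HF 1 and HF 3 lowest, so LF 1, where the other 7 members were lowest, had the second highest level of Ctss.

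**Figure D2:**
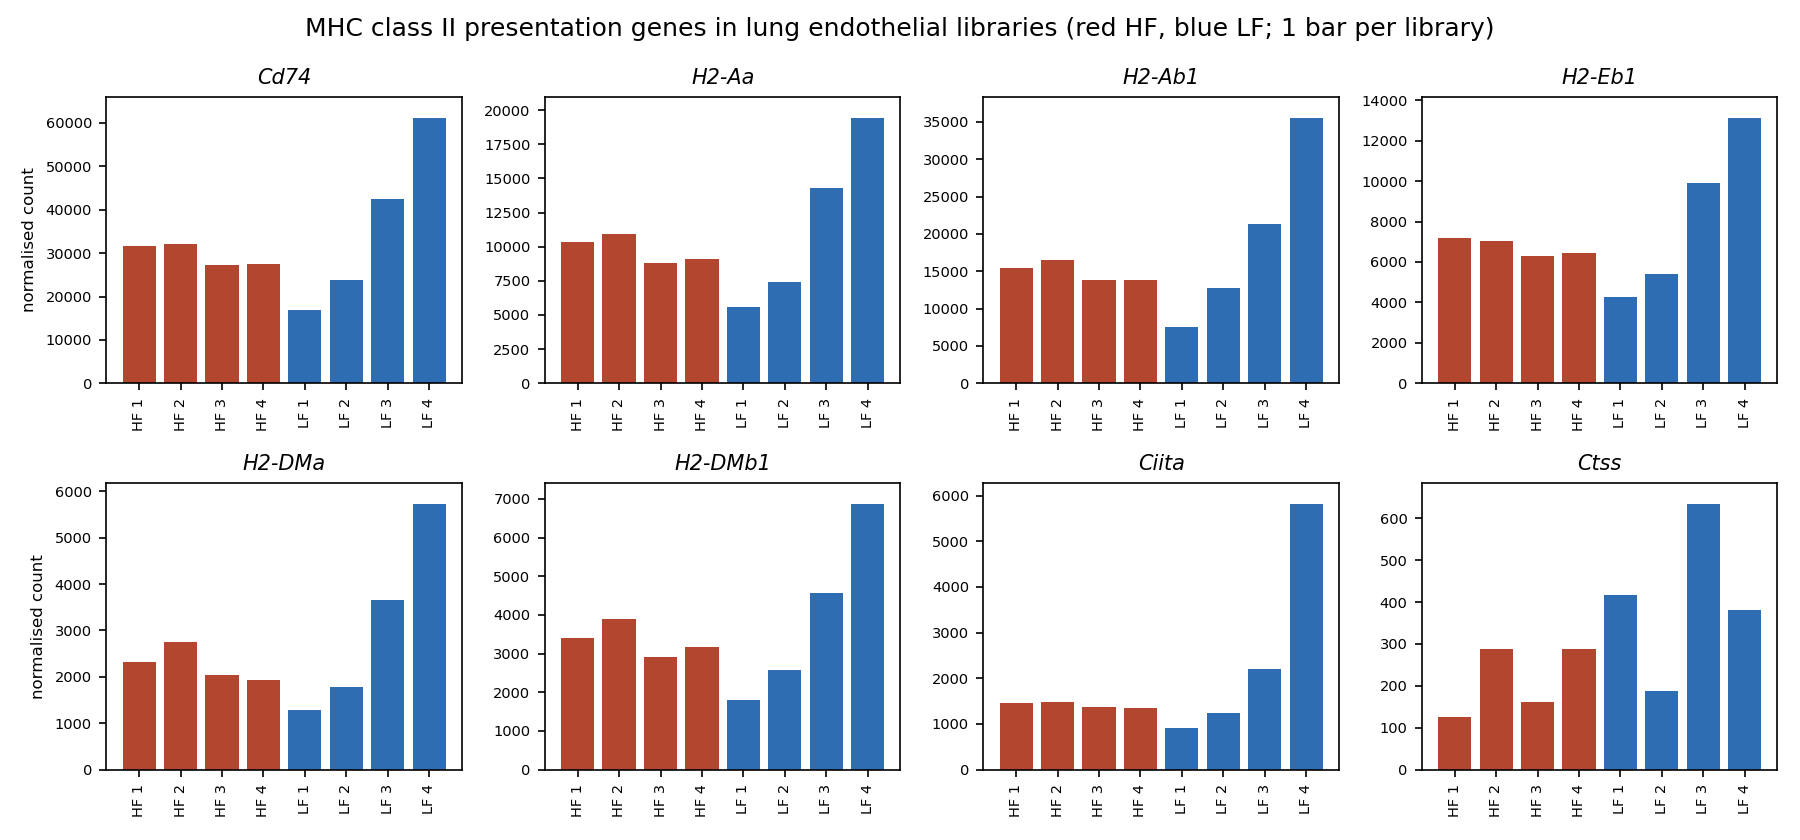
Normalised counts of the 8 class II genes, 1 panel per gene and 1 bar per library, HF in red and LF in blue, with each axis from 0. In 7 panels LF 3 and LF 4 are above and LF 1 and LF 2 below all HF bars, and Ctss differs, with LF 3 at 634 and LF 1 at 417.

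H2-Aa, H2-Eb1 and H2-DMb1 kept nearly fixed proportions to Cd74 while its level changed, H2-Ab1 and H2-DMa varied somewhat more, and Ciita departed in 1 library. Taken as a percentage of the Cd74 count of the same library, not scaled for length, H2-Aa lay between 31.1% and 33.9% in all 8 libraries, although Cd74 itself ranged from 16962 to 61197. H2-Eb1 lay between 21.5% and 25.2%. H2-DMb1 lay between 10.5% and 12.1%, and H2-DMa between 7.04% and 9.36%. H2-Ab1 lay between 44.6% in LF 1 and 58.1% in LF 4. Ciita was at 4.61% to 5.38% of Cd74 in 7 libraries and at 9.51% in LF 4. Ctss moved 6.20-fold against Cd74, from 0.397% in HF 1 to 2.46% in LF 1, and Ptprc, which encodes CD45, moved 4.73-fold. These proportions are a description of the 8 libraries and carry no test.

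**Figure D3:**
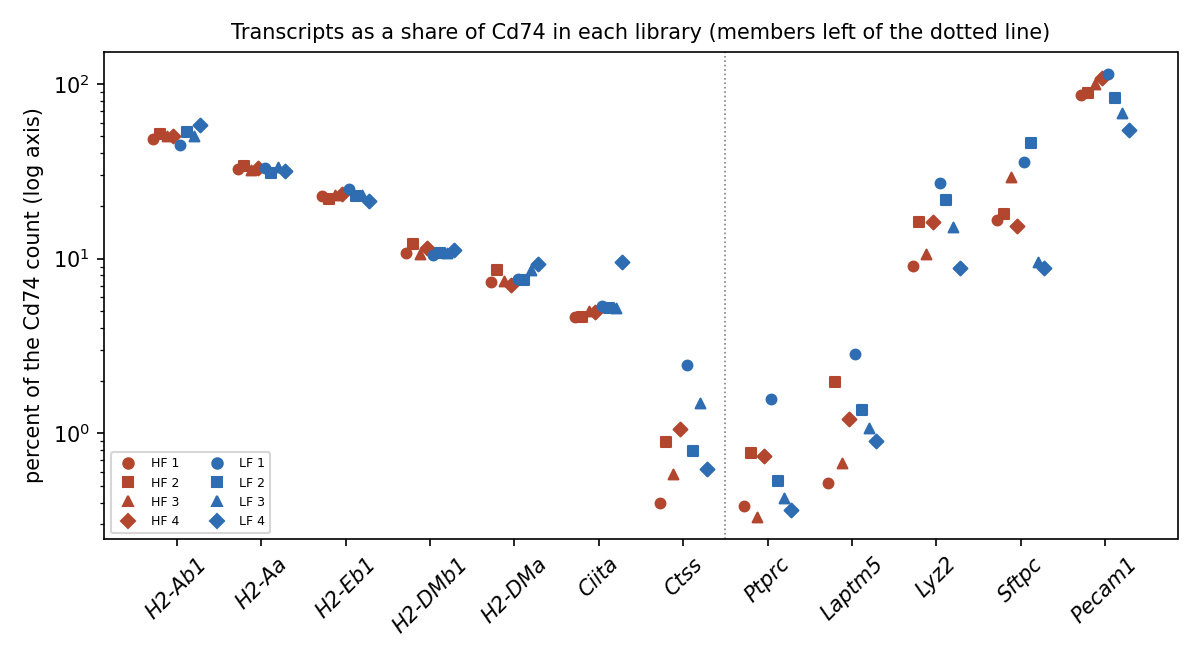
Count of each transcript as a percentage of the Cd74 count in the same library (log axis, unscaled for length), with 1 point per library, HF in red and LF in blue, and a symbol for the replicate number. The points of H2-Aa spread 1.09-fold, those of H2-Eb1 1.17-fold and those of Pecam1 2.11-fold. Ctss, Ptprc, the leukocyte gene Laptm5, Lyz2 (listed among macrophage markers) and the alveolar type 2 gene Sftpc spread 3.08- to 6.20-fold.

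The order in which LF 3 and LF 4 lay above every HF library, and LF 1 and LF 2 below every one, was found in 7 of the 8 members and in 669 of the 17067 genes tested (3.92%). The opposite order, with LF 1 and LF 2 on top, was found in 243 genes (1.42%) and in no member. Both counts were made after the values had been seen. The wide LF spread was not particular to these genes in kind, since 86.2% of the 3729 genes with a mean of at least 1000 normalised counts had a larger SD of log2 values in LF than in HF. In size it was near the upper end. The LF SD of log2 values was 0.829 for Cd74 and 1.17 for Ciita, larger than in 99.3% and 99.9% of those 3729 genes, whose median was 0.256. In HF, the SD was 0.126 for Cd74 and 0.0662 for Ciita, with a median of 0.114.

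Between all 4 HF and all 4 LF libraries, no class II gene passed the test. Cd74 was at 29678 ± 2594 (SD, n = 4) in HF and 36139 ± 19892 (SD, n = 4) in LF, a fold of 0.924 (0.567 to 1.51), with folds given as HF over LF on the log2(count + 1) scale and 95% intervals in parentheses. Folds were 0.905 for H2-Ab1 (0.527 to 1.56), 0.938 for H2-Aa (0.584 to 1.51) and 0.910 for H2-Eb1 (0.592 to 1.40). They were 0.852 for H2-DMa (0.493 to 1.47) and 0.958 for H2-DMb1 (0.589 to 1.56). Ciita was at 1418 ± 65.2 (SD, n = 4) in HF and 2546 ± 2249.6 (SD, n = 4) in LF, a fold of 0.725 (0.384 to 1.37). The intervals of these 7 genes leave room for a change in either direction. Their adjusted p by limma's moderated test with Benjamini-Hochberg adjustment lay between 0.687 and 0.950. Ctss was at 216 ± 84.8 (SD, n = 4) in HF and 405 ± 183 (SD, n = 4) in LF, a fold of 0.547 (0.322 to 0.930), with an unadjusted p of 0.0291 and a limma adjusted p of 0.391. The groups overlapped in all 8 genes, where 5.43% of tested genes had groups that do not overlap. Limma called 0 of 8 members and 0.0% of the 17067 genes, with 1 member (Ctss, lower in HF) at an unadjusted p under 0.05 beside 11.0% of genes, 4.67% in the lower direction. edgeR and DESeq2 on recovered reads also called 0 members, beside 0.0% of 17067 genes and 2.0% of the 15412 genes for which DESeq2 gave an adjusted p. In the authors' deposited table the adjusted p of the 8 genes was 0.154 (Ctss) to 0.852 (H2-DMb1).

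Which LF libraries were used decided the direction. Without LF 1 and LF 2, limma called 7 members lower in HF, all but Ctss, where 0.662% of tested genes were called lower, 3.09% higher and 3.76% in either direction. Cd74 was then at a fold of 0.580 (log2 fold change -0.79, SE 0.143, limma adjusted p = 0.0109) and Ciita at 0.395 (limma adjusted p = 0.0163), with the other 5 called genes between 0.491 (H2-DMa) and 0.594 (H2-DMb1). Without LF 3 and LF 4, the same 7 members were called higher in HF, where 14.0% of tested genes were called higher, 6.02% lower and 20.0% in either direction. Cd74 was then at a fold of 1.47 (log2 fold change 0.56, SE 0.138, limma adjusted p = 0.0195), Ciita at 1.33 (limma adjusted p = 0.0437) and the other 5 between 1.40 (H2-Eb1) and 1.55 (H2-DMb1). Ctss had folds of 0.413 and 0.724 in these fits (limma adjusted p = 0.0554 and 0.381). Both fits share the 4 HF libraries and keep 2 LF libraries each, and the pairs were set with the values of these libraries known, so the calls are a description of the LF spread. Leaving out LF 4 alone turned the estimate of all members but Ctss to higher in HF (log2 fold changes of 0.060 for Ciita to 0.27 for H2-DMb1), none of them called. Leaving out LF 3 alone did so for Cd74, H2-Aa, H2-Eb1 and H2-DMb1, and leaving out HF 3 for H2-DMb1, with estimates of at most 0.069.

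**Figure D4:**
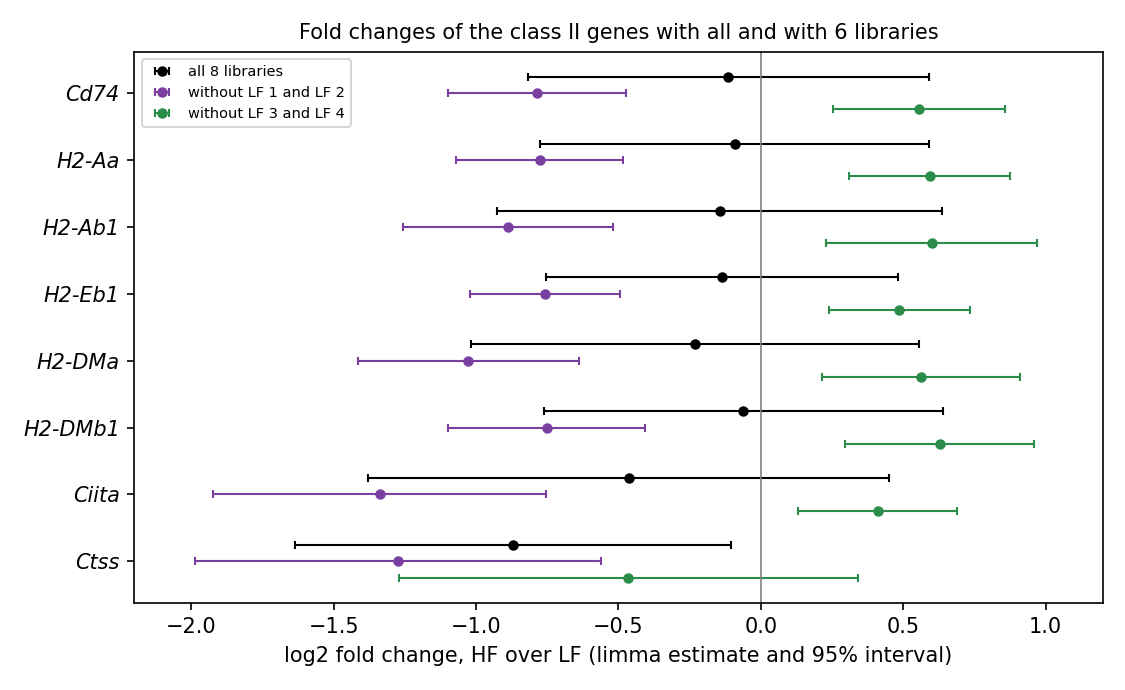
Log2 fold changes of HF over LF for the 8 class II genes with limma's 95% intervals, for all 8 libraries (black), without LF 1 and LF 2 (purple) and without LF 3 and LF 4 (green). Cd74 moves from -0.11 with all libraries to -0.79 and 0.56, and Ctss alone stays below 0 in all 3 fits.

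The class II chains outside the 8 members were scarcer than the members' chains. H2-Ob was at 81.7 to 309.9 normalised counts, highest in LF 4 and lowest in LF 1, with a fold of 0.952 (0.590 to 1.54). H2-DMb2 was at 3.89 to 29.3, with a fold of 0.646 (0.293 to 1.43). H2-Oa, the partner of H2-Ob, and H2-Eb2 did not pass the filter, at 0.972 to 11 and 0 to 6.79. H2-Ob and H2-DMb2, the 2 genes of this list of 5 that passed, had the lower estimate in HF and were not called by limma.

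Factors that act on class II promoters and carry the interferon gamma signal were all measured above the filter, and limma called none of the 15 between the groups. Of these 15 genes, 12 had the higher and 3 the lower estimate in HF. Their median log2 fold change was 0.14, where 9087 genes of 17067 (53.2%) had the higher estimate and the median was 0.023. This lean depended on the libraries and the scaling. Without LF 1 and LF 2, 5 estimates were higher and 10 lower (median -0.046), and without LF 3 and LF 4, 13 were higher and 2 lower (0.24). With quantile normalisation 9 were higher and 6 lower (median 0.034). Rfxap, a subunit of the RFX complex on the X box, was at 352, 353, 467 and 421 in HF 1 to HF 4 and 418, 299, 194 and 188 in LF 1 to LF 4. LF 1 lay within the HF range and the other LF libraries below it, so the groups overlapped (a fold of 1.52 (1.06 to 2.17), limma adjusted p = 0.378). Ifngr1, a chain of the interferon gamma receptor, was at 7693, 8587, 7130.4 and 8228 in HF 1 to HF 4 and 4803, 5564, 7026 and 8057 in LF 1 to LF 4 (a fold of 1.27 (0.989 to 1.62), limma adjusted p = 0.472). The kinase Jak2, which works below this receptor, had a fold of 1.28 (0.988 to 1.66). Irf1, a factor that acts on the Ciita gene, is given although it falls outside the rule for named genes and was chosen after its values were seen. It was at 19354, 15210.1, 17537 and 17486 in HF 1 to HF 4 and 10268, 12885, 18917 and 22157 in LF 1 to LF 4, with LF 1 and LF 2 below every HF library, LF 3 within the HF range and LF 4 above it.

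Among 16 genes of endosomal processing and class II turnover, 15 passed the filter and limma called none, with 9 estimates higher and 6 lower in HF (median log2 fold change 0.087). With quantile normalisation 6 were higher and 9 lower (median -0.020). The split was 4 higher and 11 lower without LF 1 and LF 2 (median -0.19), and 11 higher and 4 lower without LF 3 and LF 4 (0.39). Lamp1, a membrane protein of lysosomes, was at 6484, 9052, 11761 and 15518 in HF 1 to HF 4 and 6326, 5528, 3863 and 3715 in LF 1 to LF 4. Every HF value lay above every LF value (a fold of 2.15 (1.47 to 3.15), limma adjusted p = 0.163). The tetraspanin Cd63 was at 848, 755, 885 and 725 in HF 1 to HF 4 and 1026, 992, 1051 and 1005 in LF 1 to LF 4, with every HF value below every LF value (a fold of 0.786 (0.665 to 0.930), limma adjusted p = 0.275). Ifi30, the thiol reductase that opens disulfide bonds of antigens, was at 111, 119, 98.1 and 118 in HF 1 to HF 4 and 151, 176, 189.7 and 121 in LF 1 to LF 4, also without overlap (a fold of 0.709 (0.534 to 0.941), limma adjusted p = 0.359). Lamp1, Cd63 and Ifi30 were named for the smallest unadjusted p of the list, a choice that favours separated groups. Of all tested genes, 5.43% had groups that do not overlap. The order of the libraries seen in the class II chains was found in 5 of the 16 genes, namely the cathepsins Ctsb and Ctsl, the inhibitor Cst3, the peptidase Sppl2a and Lamp2, against 3.92% of all tested genes. In the other pathway lists it was found in 1 of 15 promoter and interferon gamma genes (Nfyb), 0 of 10 costimulation and checkpoint genes and 0 of 5 other class II molecules. Among the leukocyte lists, 1 of 14 macrophage and monocyte genes (Plac8) had it, and no gene of the others did.

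Genes of costimulation and checkpoints differed widely in level. Cd86 and, named after its values were seen, Cd80, the ligands of CD28 on T cells, were at 1.02 to 23.7 and 6.10 to 31.5 normalised counts. Cd40 was at 1505, 1829, 1420.4 and 1612 in HF 1 to HF 4 and 721, 883, 1648 and 1519 in LF 1 to LF 4, lower in LF 1 and LF 2 than in the other 6 libraries (a fold of 1.41 (0.993 to 2.0), limma adjusted p = 0.459). Of the 10 genes, 8 passed the filter and limma called none, with 3 estimates higher and 5 lower in HF (median log2 fold change -0.30). This median turned positive with genes of a mean of at least 50 only (0.14) and without LF 3 and LF 4 (0.35). Cd86 had a fold of 0.332 (0.141 to 0.785) without overlap of the groups, at a level where a few reads matter (limma adjusted p = 0.335). It too was named for a small unadjusted p in its list, and 5.43% of all tested genes had groups without overlap. Cd83, which steadies class II at the surface, was at 116, 168, 154 and 126 in HF 1 to HF 4 and 143, 182, 400.5 and 355 in LF 1 to LF 4, with LF 3 and LF 4 above the rest (a fold of 0.567 (0.360 to 0.891), limma adjusted p = 0.342). Without LF 1 and LF 2, limma called Cd83 lower in HF (log2 fold change -1.43, adjusted p = 0.00388), while without LF 3 and LF 4 it did not (-0.21, adjusted p = 0.512). Cd274, which encodes the checkpoint ligand PD-L1 and was named after its values were seen, was at 1017, 1100.2, 827 and 1283 in HF 1 to HF 4 and 672, 906, 1567 and 5232 in LF 1 to LF 4, with LF 4 far above the rest as for Ciita.

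Leukocytes that escaped the sort could add class II transcripts, so their markers were read in the same libraries. Ptprc (CD45) was at 121, 248, 90.4 and 204 in HF 1 to HF 4 and 265, 127, 182 and 223 in LF 1 to LF 4. LF 1 was highest and HF 3 lowest, an order unlike that of Cd74, which was lowest in LF 1. Per kilobase of exon, Ptprc averaged 9.96 normalised counts and Cd74 19600.2. The annotated exons used for this scale span 18.3 kb for Ptprc and 1.679 kb for Cd74. A shorter transcript length would raise the Ptprc value, and none was applied to this gene. The Cd74 count was 64.1 times that of Ptprc in LF 1 and 303 times in HF 3, and the ratio was 207 ± 88.5 (SD, n = 4) in HF and 190.4 ± 91.3 (SD, n = 4) in LF.

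Markers of the professional presenters spanned a wide range of levels. The B cell genes Ms4a1, Pax5, Fcmr and Blk averaged under 10 normalised counts, 3 of them with 0 in at least 1 library, while Cd79a was at 16.5 to 35.1 and Ebf1, which is not confined to B cells, at 292 to 432. Of 9 dendritic cell genes, 5 averaged under 10 (Flt3, Xcr1, Siglech, Batf3 and Ffar2), and the summed level of that list, 1131 to 1558 in HF and 1123 to 1830.1 in LF, came mostly from Clec9a at 974 to 1682. Of 9 T and NK cell genes, 5 averaged under 10, and Cd3e, Cd3d and Cd3g were at 0 in HF 3 and LF 3. Genes of the macrophage and monocyte list were higher, with Lyz2 at 2867 to 6436 and Chil3 at 188 to 1614. Of the 14 genes of this list, 2 (Marco and Fcgr1) averaged under 10. Whether the Lyz2 reads came from such cells was not tested. Sftpc, the surfactant gene of alveolar type 2 cells, which also carry class II, was at 5243, 5749.9, 8007 and 4218 in HF 1 to HF 4 and 6019.8, 10990.1, 4073 and 5430.4 in LF 1 to LF 4, so LF 2 was highest and LF 3 lowest.

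Leukocyte lists leaned lower in HF as Ctss did, though limma called none of their genes with all 8 libraries. In the list for all leukocytes 10 of 11 genes had the lower estimate (median log2 fold change -0.50), and its summed level was 3154 to 4644 in HF and 3332 to 4589 in LF. In the macrophage and monocyte list 11 of the 12 genes that passed the filter had the lower estimate (median -0.62), with summed levels of 4662 to 8028 in HF and 7577 to 10992 in LF. Dendritic cell genes (4 of 4 that passed, median -1.0), B cell genes (3 of 3, -0.54), neutrophil genes (6 of 6, -0.87) and T and NK cell genes (3 of 4, -0.49) leaned the same way, where 46.8% of all tested genes had the lower estimate. These short lists rest on genes of few reads. With genes of a mean of at least 50 only, the median was -0.12 for dendritic cells (-0.25 with no filter) and -0.14 for B cells, and that of T and NK cells was 0.16 without LF 1 and LF 2. Summed levels were 358 to 415 in HF and 389 to 534 in LF for B cells, 71.9 to 209 in HF and 122 to 533 in LF for neutrophils and 49.8 to 190.2 in HF and 65.6 to 201 in LF for T and NK cells. Alveolar type 2 genes had 6 of 8 lower (median -0.18; 6756 to 11499 in HF and 6042 to 17258 in LF). The median over the 8 class II genes was -0.14, all 8 of them lower. The part of these cells in the levels of Ctss or of the other members was not tested.

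Across the 8 libraries the class II chains and Ciita showed no relation to Ptprc that passed a test. On log2 values, Pearson's r with Ptprc was 0.0745 for Cd74 (exact permutation p = 0.863, two-sided, adjusted p = 0.899 over the 8 members by Benjamini-Hochberg), and Spearman's rho was 0.0714 (exact permutation p = 0.882, adjusted p = 0.977). Over the 7 genes other than Ctss, r ran from 0.0538 to 0.173. For Ctss, r was 0.734 (exact permutation p = 0.0415, adjusted p = 0.332) and rho 0.667 (exact permutation p = 0.0831, adjusted p = 0.665), so neither passed the adjusted threshold. Without HF 1 and HF 3, the libraries farthest from the median Ptprc, r was -0.00367 for Cd74 and 0.439 for Ctss over a narrower range of Ptprc. Without LF 1 and LF 2, r was 0.455 and 0.676, and without LF 3 and LF 4 it was -0.336 and 0.900. The relation was not tested within the groups of 4, and 8 libraries can leave a moderate relation undetected.

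**Figure D5:**
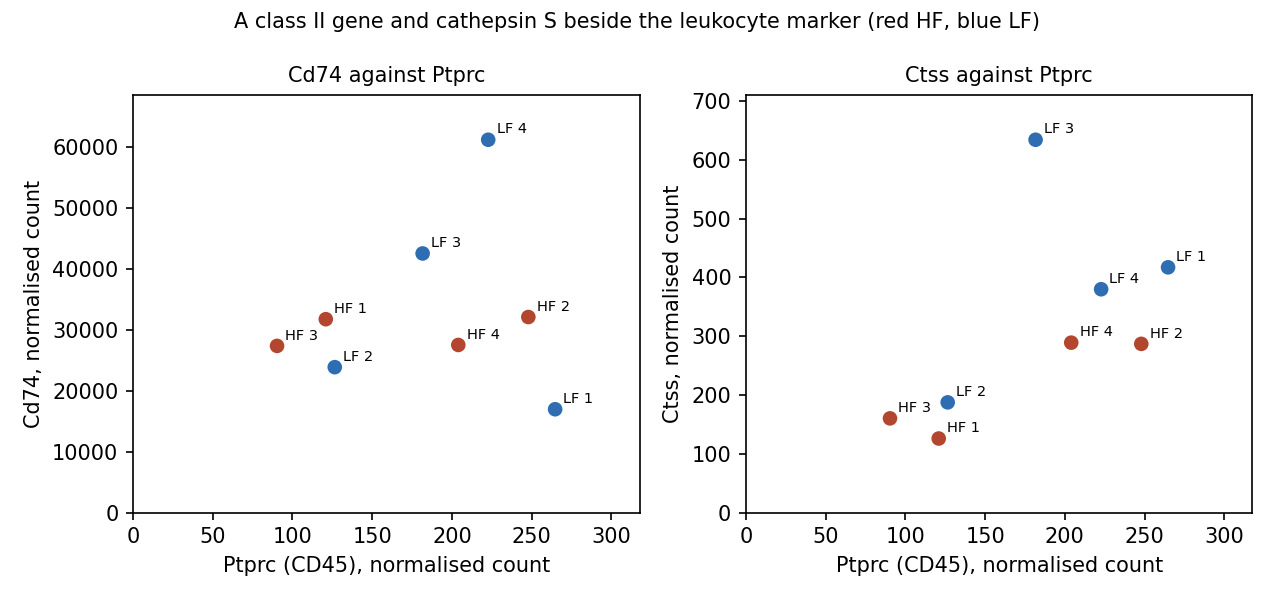
Normalised counts of Cd74 (left) and Ctss (right) against those of Ptprc, with 1 point per library, HF in red and LF in blue, and axes from 0. LF 1 has the highest Ptprc, at 265, with the lowest Cd74, at 16962, whereas its Ctss of 417 is the second highest.

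Endothelial markers moved less than the class II genes across the libraries. Pecam1 was at 27426, 28666, 27351 and 29564 in HF 1 to HF 4 and 19425, 19737, 29129 and 33236 in LF 1 to LF 4, lower in LF 1 and LF 2 than elsewhere. Markers shared by all endothelium had 9 of 10 estimates higher in HF (median log2 fold change 0.19) and general capillary markers 10 of 10 (0.31), and limma called none of either. Aerocyte markers, those of the gas-exchange capillary cells of the lung, had a median of 0.045, venous markers 0.064 and lymphatic markers -0.16. The aerocyte genes Car4, Ednrb and Fibin, 3 of 8, had the library order of the class II chains, against 3.92% of all tested genes. Among the other endothelial lists, this order was found in 0 of 10 shared, 0 of 10 general capillary, 0 of 7 venous and 0 of 7 lymphatic markers. Every list was searched for it, and the aerocyte and endosomal processing lists held the most such genes.  Without LF 3 and LF 4, where 7 class II genes were called higher, limma also called 8 of the 10 shared endothelial markers and 8 of the 10 general capillary markers higher, against 14.0% of all tested genes. It called 1 shared and 0 general capillary markers lower, against 6.02% of all tested genes. The medians of these lists were then 0.44 and 0.45, beside 0.56 for the 8 class II genes. Without LF 1 and LF 2, 0 shared and 0 general capillary markers were called lower and the medians were -0.067 and 0.057, beside -0.84. In that fit 9 of 10 shared markers had the lower estimate and 0 were called higher. Of the 10 general capillary markers, 8 had the higher estimate and 1 was called higher. Aerocyte markers had 4 of 8 called higher without LF 3 and LF 4 (median 0.31). They had 7 of 8 lower estimates, 0 of them called, without LF 1 and LF 2 (median -0.33). The part of the mix of endothelial cells in the class II levels was not tested.

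The genes whose course across the 8 libraries was most like that of Cd74 were mostly other members, and those most like Ciita were none of them. Among 10958 other protein-coding genes with a mean of at least 50 counts, the 5 with the highest Pearson r to Cd74 were H2-Aa (0.997), H2-Eb1 (0.996), Tgtp2 (0.994), H2-Ab1 (0.994) and H2-DMb1 (0.993). Tgtp2, a GTPase of the IRG family and the only one of these that is no member, was at 3982, 3901, 3385 and 3623 in HF 1 to HF 4 and 1874, 2731, 6242 and 11254 in LF 1 to LF 4. The 5 most like Ciita were Gbp7 (0.993), Tap1 (0.992), Igtp (0.991), Gbp2 (0.989) and Gvin1 (0.988), of which Gbp7, Gbp2, Igtp and Gvin1 encode GTPases and Tap1 the peptide transporter of class I presentation. Igtp was at 4395, 4492, 4041 and 3651 in HF 1 to HF 4 and 2421, 3045, 5759 and 15432 in LF 1 to LF 4. LF 4 stood out in these as in Ciita, with Tap1 at 11114 in LF 4 and at 2807 to 4690.04 in the other 7 libraries. The values of r were used to pick these genes and are a description of likeness over 8 libraries.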

How the data were processed

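RNA-seq libraries came from sorted lung endothelial cells of HF and LF mice, with 4 libraries each. The labels' protocols give RNA isolation by TRIzol LS and library preparation by a SMART-Seq kit. The submitters' processing notes list featureCounts 2.0.0, DESeq2 1.24.0 and STAR 2.6.1b, with no order. Strand setting, annotation and build of the counting are not stated there or in the labels.

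The authors deposited normalised counts, a signal made of whole reads divided by a size factor per library (0.820 to 1.27). Per the file headers, they also deposited their own log2 fold change, Wald score, p-value and adjusted p-value. Whole reads were recovered for 100% of values (tolerance 0.01 reads), 10631506 to 20781564 per library. All 34899 IDs matched GENCODE M21 (GRCm38), used for positions and exon lengths.

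The 17067 genes that reached 10 normalised counts in 4 or more libraries were tested with limma 3.58.1 (trend, log2(count + 1), two-sided, Benjamini-Hochberg over all genes, threshold 0.05), with code tested on simulated data. Alternatives were edgeR 4.0.16 and DESeq2 1.42.0 on recovered reads, other pseudocounts, filters and scalings, a replicate block and left-out libraries. Relations to Ptprc used exact permutation tests (scipy 1.17.1). P-values rest on the spread between these libraries only, which limma moderates over all genes, and the labels do not say whether lungs were pooled. The members, the 4 pathway lists and the 12 marker lists were chosen with earlier results of these data known, so lists carry counts and medians without a test. Genes were named by rule: the members, other class II chains, the 3 smallest p per pathway list, the 2 most abundant per marker list, 4 single markers, and the 5 genes most like Cd74 and Ciita. Other names are given as absent from a library, as sharing the members' library order, or as chosen after their values were seen.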

Additional observations from a re-analysis of the deposited data

Results flagged for a closer look

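Chance flags about 1 in 20 groups of 4, and 5 of the 96 groups examined (HF and LF for each member and named gene) held a library whose gap to its neighbour, as a share of the group's range, passed Dixon's critical value for 4 samples. None was a member. Ebf1, a B cell factor that other cells of the vessel wall also express, was low in HF 2 at 292 normalised counts (gap share 0.963). Nkg7, a gene of cytotoxic lymphocytes, was high in LF 1 at 79.3 (gap share 0.958). S100a9, a neutrophil gene, was low in HF 3 at 22.3 (gap share 0.899). Cd79a, a chain of the B cell receptor, was low in LF 4 at 26.0 (gap share 0.893), the library with the highest Cd74. H2-Ea-ps had 1 read in LF 2 (0.924 normalised counts) and 0 in the other 3 LF libraries (gap share 1.0).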

How the results depend on the processing

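With all 8 libraries, 0 of 8 members were called in any of the count models, pseudocounts (0.5 and 5), filters (none, and a mean of at least 50), rescalings, array weights, the replicate block or at an adjusted p of 0.10, and the lowest adjusted p over those fits was 0.149 (Ctss, by DESeq2). Without LF 1 and LF 2, 7 members were called lower in HF, and without the other LF pair 7 were called higher. Leaving out single libraries gave 0 members called, with log2 fold changes of -0.42 to 0.20 for Cd74, -0.39 to 0.21 for H2-Aa, -0.52 to 0.23 for H2-Ab1, -0.40 to 0.14 for H2-Eb1, -0.57 to 0.14 for H2-DMa, -0.38 to 0.27 for H2-DMb1, -0.83 to 0.060 for Ciita and -1.20 to -0.61 for Ctss. The estimates turned to higher in HF with array weights for Cd74 (0.0015), H2-Aa (0.030) and H2-DMb1 (0.057), and without LF 3 and LF 4 for Cd74 (0.56), H2-Aa (0.59), H2-Ab1 (0.60), H2-Eb1 (0.49), H2-DMa (0.56), H2-DMb1 (0.63) and Ciita (0.41). Of pathway list genes, 0 were called with all libraries, 1 by DESeq2, 7 when LF 1 and LF 2 were left out and 17 when LF 3 and LF 4 were. Of marker genes, 0 were called with all libraries, 1 by DESeq2, 2 when LF 1 and LF 2 were left out and 31 when LF 3 and LF 4 were. Pearson's r with Ptprc changed sign without LF 3 and LF 4 in 7 members (-0.336 for Cd74, -0.232 for H2-Aa, -0.372 for H2-Ab1, -0.327 for H2-Eb1, -0.202 for H2-DMa, -0.187 for H2-DMb1, -0.408 for Ciita) and without HF 1 and HF 3 for Cd74 (-0.00367) and H2-Ab1 (-0.0614), none of them past the adjusted threshold. The cause of these changes was not tested. The median over all genes moved by under 0.1 (log2) with each scaling.

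The replicate numbers are shared by HF and LF. Libraries of one number did not deviate together (correlations of 0.115, -0.222, -0.143 and 0.185 for numbers 1 to 4), and 1 of 4 HF libraries was closest to the LF library of its number. With the replicate block limma called 0 of 8 members and 0 of 17067 genes, with 1810 genes at an unadjusted p under 0.05 against 1882 without it.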

Other observations

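Socs1, the feedback inhibitor of interferon gamma signalling, ran opposite to the class II genes and was named after its values were seen. It was at 596, 643, 727 and 529 in HF 1 to HF 4 and 978, 784, 262 and 284 in LF 1 to LF 4, so LF 1 and LF 2 were above and LF 3 and LF 4 below every HF library, an order found in 1.42% of tested genes. Its fold was 1.27 (0.732 to 2.19) with all libraries. Without LF 1 and LF 2 limma called it higher in HF (log2 fold change 1.18, adjusted p = 0.00327), and without LF 3 and LF 4 lower (-0.50, adjusted p = 0.0374), against a limma adjusted p of 0.730 with all 8 libraries.

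Galectin 9 (Lgals9), a ligand of inhibitory receptors on T cells that was also named after its values were seen, was at 8972, 10154, 8069 and 9672 in HF 1 to HF 4 and 4578, 5329, 9865 and 11167 in LF 1 to LF 4. It was abundant in each library, and lower in LF 1 and LF 2 than in the other 6.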
